A study of Mus musculus with 18 samples.

Results

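The mitochondrial ribosomal proteins were taken as the 78 genes of the deposited liver table whose symbol begins with Mrpl or Mrps followed by a digit, out of 19057 genes with a symbol. By symbol 49 of them belong to the large subunit and 29 to the small subunit, and the rule reads the symbol alone. All 78 passed the filter on low values (a mean over all libraries of 1 or more RPKM, reads scaled by gene length and by library size), and 10204 genes were tested in all. RNA from livers of male ICR mice, 10 weeks old by the labels, was sequenced in 6 groups of 3 libraries. Con mice had a regular diet and saline. HS mice had a high-fat diet and a single injection of streptozotocin (STZ), a toxin of the insulin-secreting beta cell. A10-FMT and Con-FMT mice had the same diet and STZ and then received gut microbiota from donors dosed with alginate oligosaccharide (AOS) at 10 mg/kg or from control donors, and the donor material of each kind was pooled. A10 and HS+A10 are known here from the labels only, as AOS at 10 mg/kg alone and as high-fat diet, STZ and AOS at 10 mg/kg. Thus HS, HS+A10, A10-FMT and Con-FMT all carry the diet and STZ, and in none of the 6 groups is the diet separated from STZ. The labels do not say that the libraries of a group come from separate mice, so every p-value measures the spread between libraries, which may be in part technical.

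Mitochondria keep their own ribosome, which translates the few proteins encoded by mitochondrial DNA, all of them subunits of the respiratory chain and of ATP synthase. Its RNAs are transcribed inside the mitochondrion, while every one of its proteins is encoded in the nucleus, made in the cytosol and imported. Some of these proteins descend from bacterial ribosomal proteins and others were added in the mitochondrial lineage. The small subunit binds the mRNA and reads its codons, and the large subunit forms the peptide bond and holds the exit tunnel. In the liver, a tissue rich in mitochondria, these mRNAs are made in every hepatocyte. A symbol is not always a place: the products of Mrps30 and Mrps18a sit in the large subunit, and that of Mrps36 belongs to a dehydrogenase complex of the citric acid cycle, which gives 51 large and 26 small subunit members by place and 1 outside the ribosome. Of the other 77 members, 46 were classed here as having a bacterial homolog and 31 as particular to mitochondria. Mrps18c is in the first class and Mrps18a and Mrps18b are in the second, and results by class depend on this assignment.

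Some facts of the libraries bear on every result. The hepatocyte origin was checked with 6 defining genes, which in all 18 libraries summed to between 32360 and 54960 RPKM. Con-FMT replicate 3 carried genes of pancreatic acinar cells (11 genes, 20870 RPKM in sum), which summed to 14.1 to 50.4 RPKM in the other 17 libraries. In Con, replicate 3 lay between the other replicates for 95.3% of the 858 tested genes in which those differed by at least 0.5 on the log2 scale. For the 78 members, counted without such a threshold and with ties included, it did so in 38, so these shares are not alike. The part of either in the results was not tested, and counts without these libraries are given beside the results they touch. Markers of other cell types also moved with the groups, with no marker of these lists at 0 in all libraries. The 4 erythroid genes summed to 1256 to 1971 RPKM in Con and 2885 to 10040 in HS, the 5 stellate cell genes to 70.4 to 81.9 in Con and 110 to 173 in HS, and the 7 Kupffer cell genes to 62.7 to 108 in HS and 41.9 to 53.9 in A10-FMT, in each case without overlap. Their part in the results below was not tested. The number of reads is not given, but the steps between low values put the relative depth of the libraries at 0.952 to 1.08. In bulk liver, fewer cells of a type and less RNA per cell cannot be told apart.

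The mitoribosomal mRNAs were well expressed and spread over a 44.8-fold range of levels. Their median level over the 18 libraries was 25.6 RPKM, against 7.75 RPKM for all tested genes, and the large and the small subunit members had medians of 27.8 and 24.1 RPKM. The highest were Mrps21 with 99.8, Mrpl52 with 98.0, Mrpl12 with 90.6, Mrpl30 with 80.5 and Mrpl14 with 75.9 RPKM. Mrps21 and Mrpl14 have bacterial homologs, Mrpl52 has none, and Mrpl12 encodes the stalk protein that meets the translation factors. The lowest were Mrpl19 with 2.23, Mrps25 with 3.79, Mrpl35 with 6.56, Mrpl17 with 7.47 and Mrpl11 with 7.67 RPKM. Across the members, the level and the median length of the annotated transcripts had a Spearman rho of -0.593, a description over 78 genes that share the libraries and in which RPKM is itself divided by a length. Members with a bacterial homolog had a median level of 32.8 RPKM and those particular to mitochondria 23.6 RPKM.

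**Figure D1:**
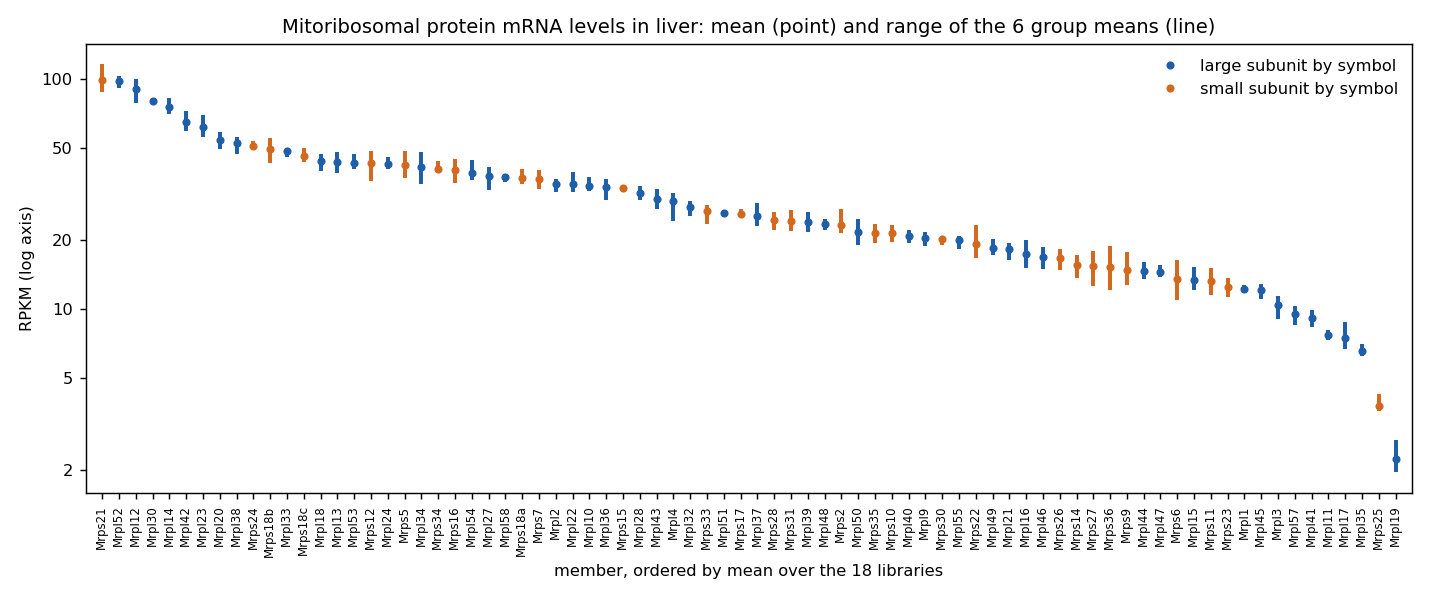
Mean RPKM of each of the 78 members over the 18 libraries (point, log axis) with the range of its 6 group means (line), ordered by level and colored by subunit. The levels run from 2.23 RPKM (Mrpl19) to 99.8 RPKM (Mrps21), and most lines are short against that range.

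Between groups the levels stayed within a narrow band. The highest group mean was at most 1.546 times the lowest in any member, with a median of 1.206, and 76 of 78 members (97.4%) stayed under 1.5 times, against 57.6% of all tested genes, whose median was 1.426. The members had a median level of 25.6 RPKM, beside 7.75 for all tested genes. No set matched for level was compared, so the part of level in this difference was not tested. Mrps15, a small subunit protein with a bacterial homolog, varied least: its group means lay between 33.2 and 34.0 RPKM, a ratio of 1.025. Mrps36 and Mrps6 were the only members over 1.5 times, at 1.546 and 1.502. The spread inside the groups was close to that of other genes, with a median within-group SD of 0.118 on the log2 scale for the members and 0.138 for all tested genes. The order of the groups turned with the scale. HS was the highest group for 28 of the 78 members and the lowest for 3 on the deposited scale, and the highest for 3 and the lowest for 22 after scaling each library to the same median RPKM. Con was the lowest group for 23 members and the highest for 8, and after scaling the lowest for 4 and the highest for 22. A10-FMT was the lowest for 18 and the highest for 6, and after scaling the lowest for 4 and the highest for 18.

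The 78 genes lie on 17 chromosomes, with at most 11 on any of them (GENCODE vM21, GRCm38). A protein-coding neighbor with its start within 1000 bases in the opposite direction was found for 18 members (23.1%), against 6.8% of 21951 protein-coding genes. The exons of 22 members overlap an exon of a gene on the other strand, and those of 4 members an exon of a gene on the same strand. The library preparation of the study is not described as marking the strand, so reads of such pairs cannot be told apart there. Named pseudogenes were annotated for Mrps36 (3), Mrpl23, Mrpl27 and Mrpl48 (1 each), and how reads were shared with them is not given.

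Nuclear genes for mitochondrial proteins often carry binding sequences of NRF1, of ETS factors such as GABP and of YY1 near their start, so the starts of the members were searched for these letters. RefSeq windows of 300 bases on GRCm38, from 250 bases before the start to 50 after it, matched 69 of the 78 members by symbol. On either strand, GCGCANGCG (NRF1) was found in 16 members (23.2%) and 7.0% of 27025 genes, CCGGAAG (ETS) in 26 members (37.7%) and 9.9% of genes, and AAGATGGCG (YY1) in 8 members (11.6%) and 1.6% of genes. At least 1 of these 3 sequences was found in 42 members (60.9%) and in 16.5% of genes. The 27025 genes are all those with a window, not chosen by level in liver, while all 78 members passed the filter on low values. Shares among genes of like level were not counted. The ETS and YY1 letters can share their AAG, so some matches may be counted for both. By subunit, the NRF1 letters were found in 12 of 43 large and 4 of 26 small subunit members with a window, and the ETS letters in 15 and 11. The 150 bases before the start are shown for 6 members that the comparisons turn on, with matched letters in capitals: Mrpl12 and Mrpl17 hold NRF1 letters and Mrps22 and Mrps27 ETS letters, while Mrpl16 and Mrps2, also called below, hold none of the 3 sequences in their whole window.
Mrpl12 (chr11:120484487-120484636, plus strand): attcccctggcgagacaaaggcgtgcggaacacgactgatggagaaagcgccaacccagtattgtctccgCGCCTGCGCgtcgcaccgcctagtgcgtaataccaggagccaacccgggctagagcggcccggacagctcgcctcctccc
Mrpl17 (chr7:105811088-105811237, minus strand): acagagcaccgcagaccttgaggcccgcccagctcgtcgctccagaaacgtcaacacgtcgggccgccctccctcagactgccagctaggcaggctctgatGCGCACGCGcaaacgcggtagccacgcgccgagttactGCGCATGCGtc
Mrps22 (chr9:98601680-98601829, minus strand): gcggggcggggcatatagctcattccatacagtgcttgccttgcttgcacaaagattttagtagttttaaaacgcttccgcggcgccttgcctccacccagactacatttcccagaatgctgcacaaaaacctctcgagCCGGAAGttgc
Mrps27 (chr13:99344636-99344785, plus strand): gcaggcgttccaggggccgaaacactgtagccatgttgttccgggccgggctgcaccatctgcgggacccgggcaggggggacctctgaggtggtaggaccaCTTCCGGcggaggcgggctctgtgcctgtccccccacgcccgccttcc
Mrpl16 (chr19:11770265-11770414, plus strand): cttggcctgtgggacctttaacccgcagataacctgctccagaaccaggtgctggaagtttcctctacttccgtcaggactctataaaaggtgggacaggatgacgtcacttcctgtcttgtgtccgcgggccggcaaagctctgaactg
Mrps2 (chr2:28467916-28468065, plus strand): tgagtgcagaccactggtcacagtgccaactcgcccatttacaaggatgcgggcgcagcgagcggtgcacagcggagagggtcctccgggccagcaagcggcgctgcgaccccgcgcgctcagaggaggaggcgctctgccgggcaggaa
Mrpl17 holds the NRF1 letters at 2 places in this stretch, while in Mrpl12 and Mrps27 the match reads on the opposite strand. A match is a description of the letters and not evidence of binding, and members with and without a match are among those called.

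The first comparison, HS against Con, asked how the mitoribosomal mRNAs stand in liver after the high-fat diet and STZ. Of the 78 members, 4 (5.13%) rose in HS and none fell, where 15.9% of all tested genes rose and 1.87% fell. The members that rose were Mrpl16 and Mrpl17 of the large subunit and Mrps2 and Mrps9 of the small subunit, all with bacterial homologs, and each by less than 1.5 times. The median log2 change of the members was 0.10, beside 0.14 for all tested genes, and 62 of 78 had a change above 0. At an unadjusted p under 0.05 the number was 17 of the 78 members, beside 3512 of the 10204 tested genes.

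Mrpl16 (chr19:11770391-11774960, plus strand, GRCm38 here and below), the counterpart of a bacterial protein close to the peptide-bond center, was at 14.6, 15.9 and 14.5 RPKM in Con and at 18.4, 21.6 and 19.8 RPKM in HS. Every HS library lay above every Con library. It rose by 0.38 ± 0.10 (SE, n = 3 libraries a group) on the log2(RPKM + 1) scale (limma, Benjamini-Hochberg adjusted p = 0.0208). Mrpl17 (chr7:105803206-105811099, minus strand), which carries the NRF1 letters at 2 places, was at 6.30, 7.04 and 6.73 RPKM in Con and at 9.32, 8.65 and 8.39 RPKM in HS, again with no overlap, and rose by 0.35 ± 0.10 (limma, adjusted p = 0.024). Mrps2 (chr2:28468066-28471178, plus strand) encodes a protein on the back of the small subunit. It was at 20.4, 23.0 and 23.3 RPKM in Con and at 28.7, 26.1 and 26.7 RPKM in HS, and rose by 0.28 ± 0.08 (limma, adjusted p = 0.034). Mrps9 (chr1:42851233-42905683, plus strand), whose bacterial counterpart reaches toward the tRNA in the decoding site, was at 11.8, 13.4 and 12.9 RPKM in Con and at 16.9, 15.3 and 14.2 RPKM in HS. The groups did not overlap, and it rose by 0.26 ± 0.08 (limma, adjusted p = 0.0342).

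The next members in order of p did not pass the threshold. In the large subunit these were Mrpl3 with a log2 change of 0.30, Mrpl50 with 0.29, Mrpl13 with 0.26, Mrpl39 with 0.24, Mrpl12 with 0.21, Mrpl28 with 0.20, Mrpl37 with 0.19 and Mrpl46 with 0.17, at limma adjusted p between 0.0526 and 0.135. In the small subunit they were Mrps31 with 0.27, Mrps22 with 0.26, Mrps5 with 0.24, Mrps35 with 0.22, Mrps23 with 0.21, Mrps7 with 0.20, Mrps18b with 0.18 and Mrps34 with 0.17, at limma adjusted p between 0.0775 and 0.187. Of these 16, HS libraries overlapped with Con libraries for Mrps5 and Mrps7 only. Over all members, 22 had every HS library above every Con library (28.2%) and 1 the reverse (1.28%), against 32.6% and 4.17% of all tested genes.

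The calls in HS were sensitive to single Con and HS libraries and to the scale. Without Con replicate 1, Con replicate 3 or HS replicate 2 the count of members called was 0, without HS replicate 1 it was 1, and without Con replicate 2 it was 8. Of all tested genes 17.7% were called with all libraries. In these settings 8.28%, 9.14%, 10.5%, 15.5% and 15.7% were, in the same order. Scaling each library to the same median RPKM moved the median of the members to -0.08, with that of all tested genes at -0.01, and the call then was 1 lower and 0 higher. On that scale 8.66% of all tested genes were called. With only HS and Con in the fit the count was 0, beside 5.55% of all tested genes. On the common-median scale the changes of Mrpl16 and Mrpl17 were 0.21 and 0.18 with limma adjusted p of 0.139 and 0.205.

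**Figure D2:**
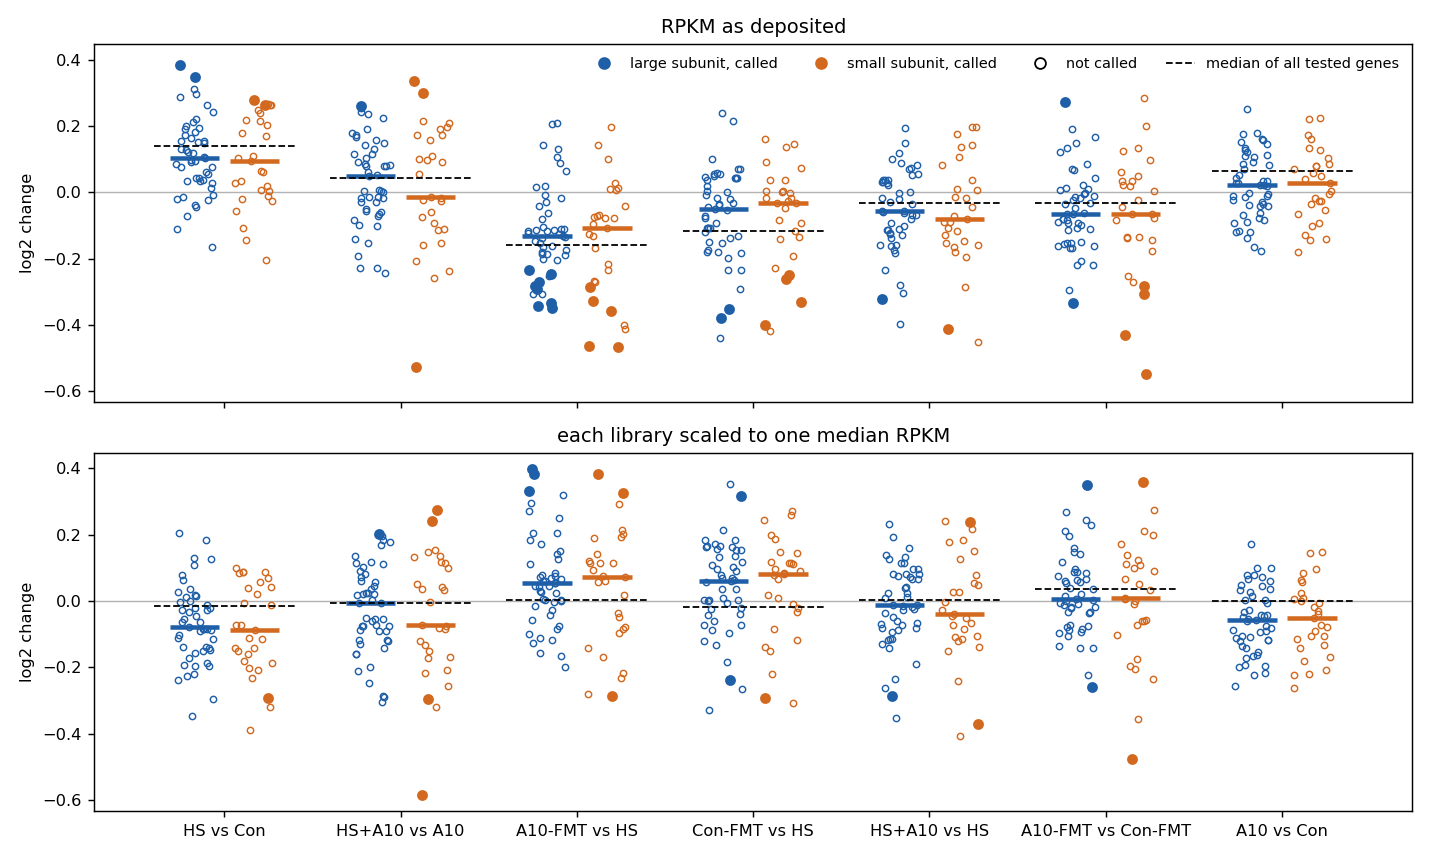
Log2 change of each member in the 7 comparisons, with RPKM as deposited (upper) and with each library scaled to the same median RPKM (lower). Filled points passed limma's adjusted p of 0.05, thick lines are subunit medians and dashed lines the median of all tested genes. In HS vs Con the subunit medians lie at 0.10 and 0.09 as deposited and at -0.08 and -0.09 after scaling.

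HS+A10 against A10 is a second comparison of diet and STZ, made with AOS in both arms and with no library in common with the first. Of the 78 members, 3 rose and 1 fell, where 13.6% of all tested genes rose and 7.28% fell. The median log2 change of the members was 0.03, beside 0.04 for all tested genes, and -0.03 after scaling to a common median, where all 4 calls below held. The members that rose were Mrps9, Mrps5 and Mrpl37, and Mrps36 fell. Mrps9 was at 15.03, 14.05 and 13.75 RPKM in A10 and at 17.5, 18.3 and 17.5 RPKM in HS+A10, and rose by 0.30 ± 0.08 (limma, adjusted p = 0.0148). Mrps5 encodes a protein at the mRNA entry of the small subunit. It was at 39.4, 36.3 and 39.1 RPKM in A10 and at 53.0, 48.8 and 44.1 RPKM in HS+A10, and rose by 0.33 ± 0.10 (limma, adjusted p = 0.0255). Mrpl37, a protein particular to mitochondria, rose by 0.26 ± 0.09 (limma, adjusted p = 0.0446). HS+A10 and A10 libraries did not overlap for any of these. Every HS+A10 library lay above every A10 library for 16.7% of the members and 26.9% of all tested genes. Mrps36 (chr13:100735955-100744659, minus strand), named as a ribosomal protein but a part of the alpha-ketoglutarate dehydrogenase complex, was at 18.50, 17.05 and 18.04 RPKM in A10 and at 10.8, 13.5 and 12.1 RPKM in HS+A10. It fell by 0.53 ± 0.16 on the log2 scale (limma, adjusted p = 0.0279), and it has 3 annotated pseudogenes. The number called was 0 without A10 replicate 2 or without A10 replicate 3, 2 without A10 replicate 1, HS+A10 replicate 1 or HS+A10 replicate 2, and 7 without HS+A10 replicate 3. Of all tested genes 20.9% were called with all libraries. In these settings 13%, 13.4%, 16.5%, 13.3%, 15.4% and 16% were, in the same order.

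Set side by side, the changes in both contrasts had a Pearson r of 0.552 and a Spearman rho of 0.497 over the 78 members, and 0.683 and 0.581 over all 10204 tested genes, where genes are not independent replicates and share the libraries. Both changes were above 0 for 39 members and below 0 for 12. Mrps9 was the only member called in both, while 922 of the tested genes were called in both. The difference between the contrasts was tested as an interaction, and no member passed in limma (0% of all tested genes were called lower and 0.0098% higher), with 3 members at an unadjusted p under 0.05. Of these Mrps22, a small subunit protein particular to mitochondria, had a difference of -0.50 ± 0.14 (limma, adjusted p = 0.188). The difference was -0.33 for Mrps35, -0.28 for Mrpl21 and 0.26 for Mrpl41, at limma adjusted p between 0.271 and 0.393. For Mrps22 the log2 change was 0.26 in HS vs Con, and it stood at 19.8, 19.9 and 21.8 RPKM in A10 and at 15.2, 16.8 and 19.9 RPKM in HS+A10.

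**Figure D3:**
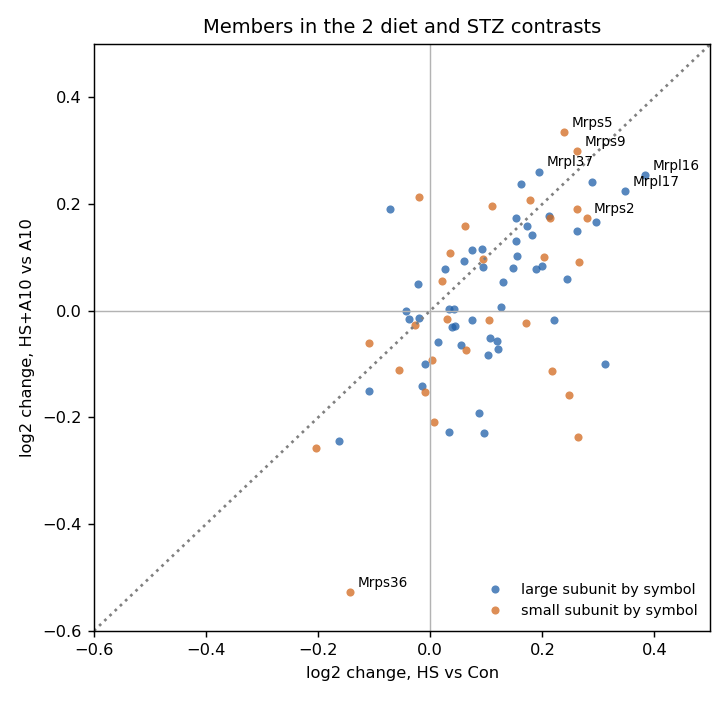
Log2 change of the 78 members in HS vs Con (x axis) against HS+A10 vs A10 (y axis), which share no library, colored by subunit, with the members called in either contrast named and the line of equal change dotted. Mrps9 is called in both, Mrps36 lies lowest on the y axis at -0.53, and r over the members is 0.552.

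The transplant comparisons set A10-FMT and Con-FMT against HS, with the HS libraries as the common reference, so the values of the same member in these 2 comparisons and in HS vs Con are tied to each other through HS. In A10-FMT against HS, 13 of 78 members fell (16.7%) and none rose, where 21% of all tested genes fell and 2.09% rose. Those that fell were 8 of the 49 large and 5 of the 29 small subunit members. The median log2 change of the members was -0.13, beside -0.16 for all tested genes.

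Mrps27 (chr13:99344786-99415562, plus strand), a small subunit protein with pentatricopeptide repeats, had the smallest p. It was at 17.02, 17.30 and 19.08 RPKM in HS and at 13.9, 11.5 and 12.5 RPKM in A10-FMT, and fell by 0.47 ± 0.10 (limma, adjusted p = 0.00453). It was the only called change among those named that kept an adjusted p under 0.05 in each of its 12 alternatives, between 0.00402 and 0.039. Its exons share positions with a transcript of the other strand that was not analysed here. Mrps22 (chr9:98588730-98601660, minus strand), also particular to mitochondria, was at 23.4, 22.3 and 24.2 RPKM in HS and at 17.7, 16.9 and 15.2 RPKM in A10-FMT, and fell by 0.46 ± 0.10 (limma, adjusted p = 0.00574). Mrpl19 (chr6:81957851-81965958, minus strand), the lowest member in level, was at 2.55, 2.90 and 2.65 RPKM in HS and at 2.27, 1.75 and 1.81 RPKM in A10-FMT, and fell by 0.33 ± 0.08 (limma, adjusted p = 0.00898). Mrps2 was at 28.7, 26.1 and 26.7 RPKM in HS and at 23.4, 20.6 and 20.4 RPKM in A10-FMT, and fell by 0.33 ± 0.08 (limma, adjusted p = 0.0136). In all of these the 3 libraries of each group stood apart. Every A10-FMT library lay under every HS library for 33.3% of the members and 32.8% of all tested genes.

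Of the other members named by rank, Mrpl50 fell by 0.34, Mrpl42 by 0.29, Mrpl16 by 0.35, Mrpl38 by 0.23, Mrps12 by 0.36 and Mrps18b by 0.29, at limma adjusted p between 0.0225 and 0.035. The remaining 3, named after their values were seen to complete the count, were Mrpl39, Mrpl22 and Mrpl17. Mrps12 is the counterpart of the bacterial protein at the decoding center, and Mrpl16 had risen in HS against Con. After scaling to a common median, the members' median was 0.06 with 5 members higher and 1 lower, so the direction of the group as a whole turned with the scale. The share of all tested genes called then was 11.3%. With only the groups compared in the fit, 2 members were called, beside 7.98% of all tested genes. Mrps27 kept its call on the common-median scale, with a log2 change of -0.29 (limma, adjusted p = 0.0335). The number of members called ran from 4 without HS replicate 2 to 13 without A10-FMT replicate 1, and it was 8 without HS replicate 1, 7 without HS replicate 3 and 5 without A10-FMT replicate 2 or replicate 3. Of all tested genes 23.1% were called with all libraries. In these settings 14.5%, 25.3%, 23%, 15%, 13.1% and 12.7% were, in the same order.

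In Con-FMT against HS, 6 members fell (7.69%) and none rose, where 19% of all tested genes fell and 4.61% rose. The median log2 change was -0.04, beside -0.12 for all tested genes, and 0.07 after scaling to a common median, with 1 member higher and 2 lower. After scaling 20.6% of all tested genes were called. With only the groups compared in the fit, no member was called, beside 7.82% of all tested genes. The 6 members that fell were Mrpl12 and Mrpl4 of the large subunit and Mrps27, Mrps22, Mrps2 and Mrps35 of the small subunit. Mrpl12 (chr11:120484613-120489065, plus strand) was at 105, 103 and 93.4 RPKM in HS and at 77.9, 80.1 and 77.5 RPKM in Con-FMT, and fell by 0.35 ± 0.09 (limma, adjusted p = 0.00878). Con-FMT had the lowest mean of the 6 groups for this member, though A10 replicate 3 lay within its range at 79.6 RPKM. Mrpl12 and Mrps27 kept their calls after scaling. Mrps27 was at 14.4, 10.9 and 14.8 RPKM in Con-FMT and fell by 0.40 ± 0.10 (limma, adjusted p = 0.00816). Mrpl4 fell by 0.38, Mrps22 by 0.33, Mrps2 by 0.26 and Mrps35 by 0.25, at limma adjusted p between 0.0166 and 0.0485. Mrpl4 has a bacterial homolog that lines the exit tunnel. Without Con-FMT replicate 3, the library with acinar genes, 4 members were lower and 1 higher. The count was 2 without HS replicate 1 and 3 without Con-FMT replicate 1. Of all tested genes 23.6% were called with all libraries. Without Con-FMT replicate 3, HS replicate 1 or Con-FMT replicate 1 the share was 22.3%, 18.7% and 19.2%.

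A10-FMT against Con-FMT separates the kinds of donor. Of the members 5 were lower and 1 higher in A10-FMT, where 12% of all tested genes were lower and 6.72% higher. This split turned with the scale: 2 were lower and 2 higher with median scaling, and 2 lower and 4 higher with quantile normalization. On these scales 22.1% and 20.8% of all tested genes were called. With only the groups compared in the fit, 1 member was called, beside 6.71% of all tested genes. Mrpl12 rose by 0.27 ± 0.09 (limma, adjusted p = 0.0374), from 77.9, 80.1 and 77.5 RPKM in Con-FMT to 101, 95.8 and 88.9 RPKM in A10-FMT. In Mrps12 the libraries stood at 45.1, 52.1 and 49.4 RPKM in Con-FMT and at 31.4, 36.0 and 41.0 RPKM in A10-FMT, and it fell by 0.43 ± 0.11 (limma, adjusted p = 0.0116). Mrps6 (chr16:92058270-92112227, plus strand), a small subunit protein with a bacterial homolog, was at 17.97, 15.78 and 15.47 RPKM in Con-FMT and at 11.5, 9.47 and 11.8 RPKM in A10-FMT, and fell by 0.55 ± 0.15 (limma, adjusted p = 0.019). Its exons overlap those of Slc5a3, a myo-inositol transporter on the same strand, whose own change was -0.65 (limma, adjusted p = 0.0526) at a mean level of 1.03 RPKM. Mrpl50 fell by 0.33, Mrps14 by 0.31 and Mrps18b by 0.28, at limma adjusted p between 0.0278 and 0.0416, and only for Mrpl50 did the libraries of the groups overlap. Every A10-FMT library lay under every Con-FMT library for 16.7% of the members and 19.4% of all tested genes. Without Con-FMT replicate 3 the number called was 2, neither of them higher. It was 1 without A10-FMT replicate 2, 2 without Con-FMT replicate 1, 4 without A10-FMT replicate 1 or replicate 3, and 5 without Con-FMT replicate 2. Of all tested genes 18.8% were called with all libraries and 16.1% without Con-FMT replicate 3. In the other settings 11.5%, 14.4%, 15.2%, 16% and 14.9% were, in the same order.

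**Figure D4:**
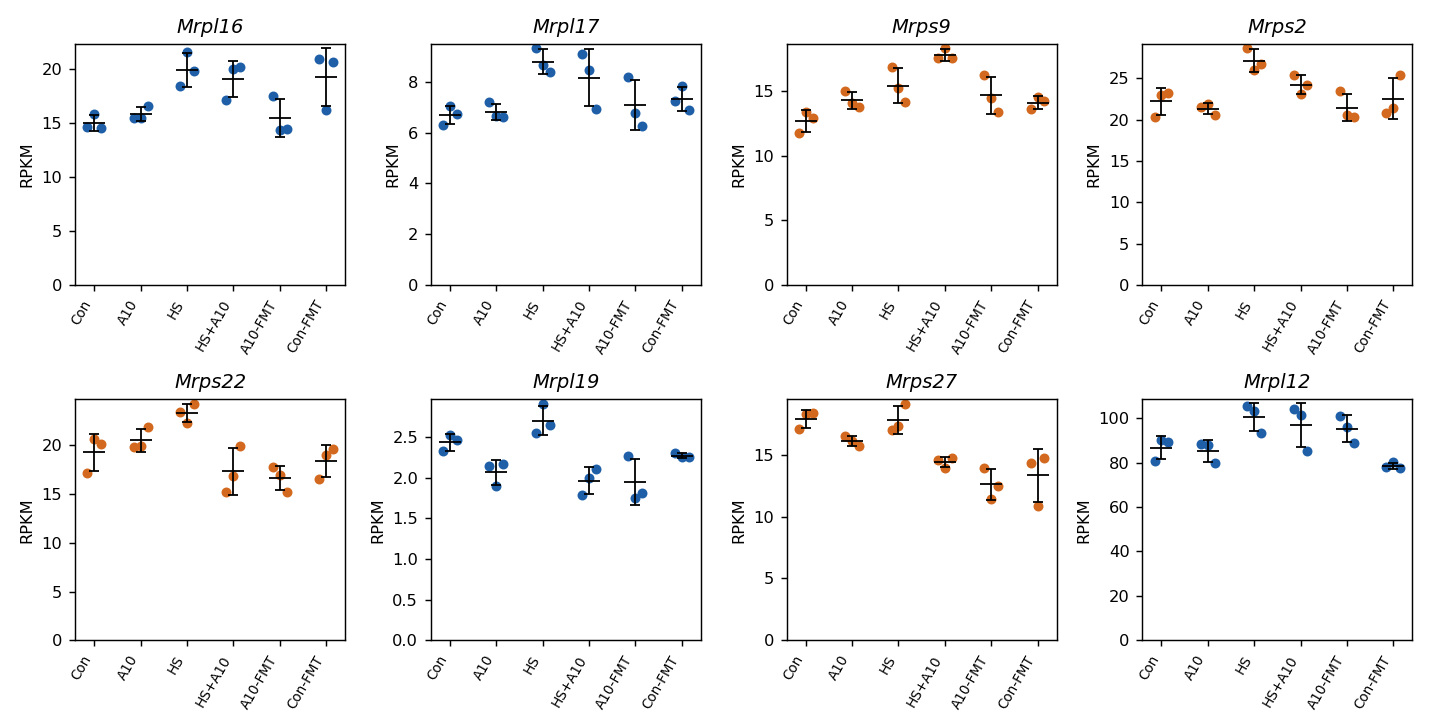
RPKM of 8 members in each library (points), with the group mean and SD (bar, n = 3) on axes that start at 0, for large (blue) and small (orange) subunit members. Mrps22 is highest in HS at 22.3 to 24.2 RPKM, and Mrpl12 is lowest in Con-FMT at 77.5 to 80.1 RPKM.

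AOS given with the diet and STZ was compared as HS+A10 against HS, and 2 members fell and none rose, where 4.37% of all tested genes fell and 2.95% rose. After scaling to a common median 2 were lower and 1 higher, and with only the groups compared in the fit none was called. Of all tested genes 9.16% and 0.559% were called in these settings. Mrps22 fell by 0.41 ± 0.10 (limma, adjusted p = 0.0248) and Mrpl19 by 0.32 ± 0.08 (limma, adjusted p = 0.0253). Mrpl19, a protein at the interface of the subunits in bacteria, was at 1.78, 1.99 and 2.11 RPKM in HS+A10, with no overlap with HS. Every HS+A10 library lay under every HS library for 14.1% of the members and 15.7% of all tested genes. Mrps22 and Mrpl19 were both also lower in A10-FMT against HS, a comparison with the same HS libraries. The count was 0 without HS replicate 2, without HS replicate 3 or without HS+A10 replicate 1. Of all tested genes 7.32% were called with all libraries, and 2.17%, 2.12% and 1.56% in these settings. AOS alone, A10 against Con, called no member in limma, with 1 at an unadjusted p under 0.05, where 0.049% of all tested genes rose and 0.0196% fell. By rank of p, the log2 change was 0.22 for Mrps35, 0.16 for Mrps9, -0.16 for Mrpl19 and -0.18 for Mrpl20, at limma adjusted p between 0.288 and 0.411. The 95% intervals of the members' differences, not adjusted for the number of genes, reached from -0.53 to 0.60, with a median half-width of 0.21. Changes under that size, and some above it, could be missed at the adjusted threshold. Mrps35, at 0.22, was not called (limma, adjusted p = 0.288).

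Over the 7 comparisons, 56 members were called in none, 11 in 1, 9 in 2 and 2 in 3. The latter were Mrps2 and Mrps22, both of the small subunit. By subunit, 38 of 49 large and 18 of 29 small subunit members were called in none. The same count was not made over all tested genes, of which single comparisons called between 0.0686% and 23.6%. These numbers are therefore a description and not a result about the members or the subunits.

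The large and the small subunit were then compared within each library. Summed RPKM lay between 1413 and 1704 for the large and between 777 and 910 for the small subunit members, and together they made up 0.273% to 0.360% of all RPKM. The ratio of the sums (mean ± SD, n = 3) was 1.84 ± 0.049 in Con, 1.88 ± 0.015 in A10, 1.87 ± 0.010 in HS, 1.87 ± 0.035 in HS+A10, 1.87 ± 0.033 in Con-FMT and 1.92 ± 0.0055 in A10-FMT. The A10-FMT libraries, at 1.919, 1.924 and 1.913, lay above the 15 others, which ranged from 1.788 to 1.904. This order held in 65 of the 78 cases where a single member was left out. It did not hold when Mrps30, Mrps18a and Mrps36 were placed by the structure (3 other libraries then reached the lowest A10-FMT value) or when medians replaced sums (4 others).

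The median shifts of the subunits were also set side by side. The median log2 changes of large and small subunit members were 0.10 and 0.09 in HS vs Con, -0.13 and -0.11 in A10-FMT vs HS, -0.05 and -0.03 in Con-FMT vs HS, -0.06 and -0.08 in HS+A10 vs HS, -0.06 and -0.07 in A10-FMT vs Con-FMT and 0.02 and 0.03 in A10 vs Con. After scaling to a common median they were -0.08 and -0.09, 0.05 and 0.07, 0.06 and 0.08, -0.01 and -0.04, 0.0069 and 0.0095, and -0.06 and -0.05 in the same order, so the direction turned in all but HS+A10 vs HS. In HS+A10 vs A10 they were 0.05 and -0.01, a difference of 0.06, which was -0.01 to 0.04 when single libraries were left out. By place in the mitoribosome, with Mrps36 in neither set, the medians in this comparison were 0.05 and 0.02. The within-group SD of the large minus small median by symbol was 0.0351 between libraries. The medians of members with a bacterial homolog and of those particular to mitochondria were 0.10 and 0.10 in HS vs Con and -0.13 and -0.12 in A10-FMT vs HS, and after scaling -0.08 and -0.07, and 0.05 and 0.06.

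**Figure D5:**
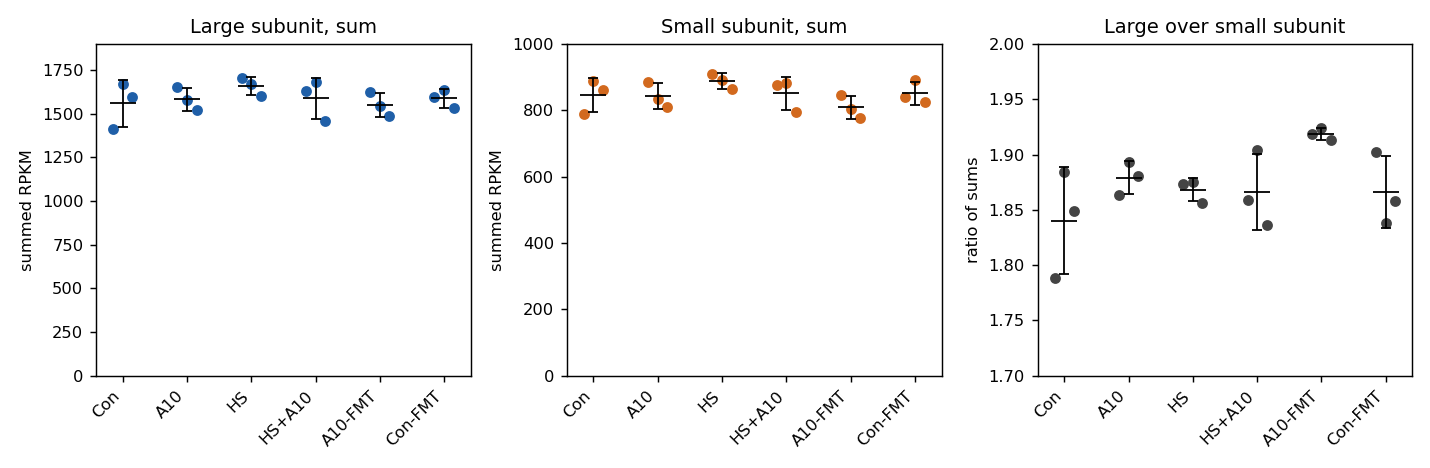
Summed RPKM of large (left) and small (middle) subunit members and their ratio (right) in each library, with group mean and SD (n = 3); the axes of the sums start at 0 and that of the ratio at 1.7. The A10-FMT ratios lie between 1.913 and 1.924, above the other 15 libraries.

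Genes that act with the mitoribosome were taken as lists. Of 11 tested translation factors of mitochondria, 3 rose in HS vs Con and 4 in HS+A10 vs A10, with median log2 changes of 0.25 and 0.24. Of all tested genes 15.9% and 13.6% rose in these comparisons, with medians of 0.14 and 0.04. Tufm, the elongation factor that brings the aminoacyl-tRNA, was at 54.6 ± 5.8 RPKM in Con and 73.9 ± 4.0 in HS, and rose by 0.43 (limma, adjusted p = 0.00639). Gfm1, the translocase, rose by 0.50 (limma, adjusted p = 0.00639), from 26.5 ± 4.4 to 37.4 ± 1.0 RPKM. Gfm2, which helps to take the ribosome apart after termination, rose by 0.33 (limma, adjusted p = 0.0202). All 3 also rose in HS+A10 vs A10 and fell in A10-FMT vs HS. Of 19 tested mitochondrial aminoacyl-tRNA synthetases and amidotransferase subunits, 6 rose in HS vs Con, with a median of 0.25, and 7 in HS+A10 vs A10, with a median of 0.18. Qrsl1, a subunit of the glutamyl-tRNA amidotransferase, was at 2.65 ± 0.17 RPKM in Con and 4.49 ± 0.29 in HS and rose by 0.59 (limma, adjusted p = 0.00376). Iars2 rose by 0.39 and Yars2 by 0.32.

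Of 24 tested assembly factors of the mitoribosome, 4 rose in HS vs Con, among them Dhx30, Mettl15 and Mettl17, and 2 in HS+A10 vs A10. These shares, 16.7% and 8.33%, are near or under the 15.9% and 13.6% of all tested genes. Leaving out single libraries, the count in HS vs Con was 2 to 4 for the translation factors, 2 to 7 for the synthetases and 0 to 3 for the assembly factors, and after scaling to a common median 1, 2 and 0 of them were called higher. In HS+A10 vs A10 the counts without single libraries were 2 to 5, 3 to 8 and 0 to 3. In A10-FMT vs HS, 3 translation factors, 6 synthetases and 5 assembly factors fell and none of them rose, at shares of 27.3%, 31.6% and 20.8% where 21% of all tested genes fell. Leaving out single libraries gave 1 to 5, 3 to 6 and 0 to 6. After scaling these were 0, 3 and 0 lower and 2 assembly factors higher. Whether these lists differ from the mitoribosomal proteins was not tested. Of the 5 mitoribosomal proteins without an Mrp symbol (Dap3, Ptcd3, Chchd1, Aurkaip1 and Gadd45gip1), none passed in HS vs Con, where their median was 0.12, and Ptcd3 rose by 0.35 in HS+A10 vs A10 (limma, adjusted p = 0.0257). Of 14 genes for mitochondrial transcription and its regulators 2 rose in HS vs Con (14.3%), and of 15 general mitochondrial genes 3 rose (20%), near the 15.9% of all tested genes. Leaving out single libraries gave 0 to 2 and 1 to 5, and after scaling none of the former was called and 1 of the latter was higher and 1 lower. In HS+A10 vs A10, 6 and 4 rose, and 1 to 6 and 2 to 5 without single libraries. The 6 include Ppargc1b, which passed the filter only through the groups where it was high. Of 79 nuclear genes for oxidative phosphorylation, whose complexes hold the products of the mitoribosome, 9 rose in HS vs Con (11.4%, under the 15.9% of all tested genes) and none fell, with a median of 0.06. The median was -0.13 after scaling, with 1 higher and 3 lower, and 1 to 14 rose when single libraries were left out.

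The proteins of the cytosolic ribosome, set beside as the other ribosome of the cell, had medians below 0 on both scales in the 2 diet and STZ contrasts. The transplant comparisons have HS as their reference, so they place these genes beside HS and not beside Con. There the median of the cytosolic ribosomal proteins was 0.07 in Con-FMT vs HS as deposited, and in A10-FMT vs HS -0.04 as deposited and 0.16 after scaling. Of 77 tested genes, 75 had a log2 change below 0 in HS vs Con, with a median of -0.25, and 14 fell and none rose, while in HS+A10 vs A10 43 fell, with a median of -0.34. Of all tested genes 1.87% and 7.28% fell in these comparisons. After scaling to a common median, 64 fell in each comparison, beside 486 and 1151 of the 10204 tested genes. Leaving out single libraries, 0 to 34 were called lower in HS vs Con, with medians between -0.37 and -0.16, and 24 to 38 in HS+A10 vs A10. The mitoribosomal members, at medians of 0.10 and 0.03 on the deposited scale, lay between these genes and the translation factors in both contrasts, on this scale and after scaling, where the members' medians of -0.08 and -0.03 were also below 0 and those of the cytosolic ribosomal proteins were -0.43 and -0.40.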

How the data were processed

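RNA from 18 mouse liver libraries was measured by oligo(dT)-selected RNA-seq on an Illumina HiSeq. The authors mapped reads (SOAPaligner in the methods of the study, Bowtie 0.12.2 and mm10 in the submitters' processing notes), and deposited RPKM values per gene, which were used here as they are. Counts, read totals and the annotation behind the gene lengths are not given in the sources used here, so the precision set by depth is unknown. The preparation is not described as marking the strand.

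Values were analyzed as log2(RPKM + 1), which understates changes of low genes, for the 10204 of 19057 genes whose mean reached 1 RPKM. limma 3.58.1 (R 4.3.3) was fitted to all 18 libraries with a mean per group and a variance trend, and p-values were two-sided and adjusted by Benjamini-Hochberg over all tested genes, with calls at 0.05. The DEGseq test named by the study works on read counts and was not run on these RPKM values. Groups came from the sample titles. The fit was tested on simulated data. The symbol rule reads no measured value, but the choice of this gene family, the gene lists and the tests was made with earlier results of these data known. Named members were the 10 large and 10 small subunit genes with the smallest p in HS vs Con, up to 5 of each among those called in the other comparisons or 2 of each where none was called, and the 5 highest and 5 lowest in level. Positions came from GENCODE vM21 (GRCm38) and sequences from RefSeq (GRCm38.p6), where 9 members had no window. Alternatives were a pseudocount of 0.1, no filter, median scaling, quantile normalization, a replicate block, only the groups compared, each library left out, and subunits by place. No library had values shared with another beyond 0.833% of genes.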

Additional observations from a re-analysis of the deposited data

How the results depend on the processing

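With a pseudocount of 0.1, no count of called members moved by more than 1.5 times. Without a filter the number of members called in HS+A10 vs A10 was 2, beside 11.1% of the 19057 genes then tested. With median scaling the counts were 1 (HS vs Con), 6 (A10-FMT vs HS) and 3 (Con-FMT vs HS), and the medians of the members -0.0817 (HS vs Con), 0.0594 (A10-FMT vs HS), 0.0675 (Con-FMT vs HS), 0.00821 (A10-FMT vs Con-FMT) and -0.0557 (A10 vs Con). With quantile normalization the counts were 0 (HS vs Con) and 6 (A10-FMT vs HS, 5 higher and 1 lower), beside 8.58% and 10.9% of all tested genes. The medians of the members were then -0.0423 (HS vs Con), 0.0363 (A10-FMT vs HS), 0.0297 (A10-FMT vs Con-FMT) and -0.0577 (A10 vs Con). These scalings remove the shift of all genes by construction. Under median scaling Mrpl46, Mrps18b and Mrps34 changed sign in HS vs Con, to -0.0036, -0.00543 and -0.0124. With only the groups compared in the fit, which leaves fewer libraries for the spread, the counts were 0 (HS vs Con), 2 (A10-FMT vs HS), 0 (Con-FMT vs HS), 0 (HS+A10 vs HS) and 1 (A10-FMT vs Con-FMT).

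Leaving out single libraries, members called ran from 0 to 8 (HS vs Con), 0 to 7 (HS+A10 vs A10), 4 to 13 (A10-FMT vs HS), 2 to 6 (Con-FMT vs HS), 0 to 2 (HS+A10 vs HS), 1 to 5 (A10-FMT vs Con-FMT), and were 0 in A10 vs Con and the interaction. The share of all tested genes called also moved between such settings, as given with the comparisons above. The large minus small median ran from -0.0561 to 0.0284 (A10 vs Con), -0.0149 to 0.037 (HS+A10 vs A10) and -0.0452 to 0.0281 (Con-FMT vs HS). Without both Con replicate 3 and Con-FMT replicate 3, an alternative added after seeing the data, the counts were 1 (HS vs Con) and 2 (A10-FMT vs Con-FMT). Of all tested genes 9.9% and 13.9% were called then.

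Libraries with the same replicate number did not deviate together (correlations between -0.09 and 0.26, with no comparison where all were over 0.1). With the replicate block the counts were 4 (HS vs Con), 3 (HS+A10 vs A10), 12 (A10-FMT vs HS), 7 (Con-FMT vs HS), 2 (HS+A10 vs HS), 5 (A10-FMT vs Con-FMT) and 0 (A10 vs Con). No count moved by more than 1.5 times. Of all tested genes 16.6%, 19.7%, 21.9%, 22.8%, 6.44%, 17.8% and 0.049% were called with the block, in the same order. The number of libraries limits the precision, with a median half-width of 0.21 for the members' 95% intervals.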

Other observations

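Ppargc1b, a coactivator of genes for mitochondrial proteins, was at 0.79 ± 0.029 RPKM in HS, 1.87 ± 0.29 in HS+A10 and 1.77 ± 0.26 in A10-FMT (SD, n = 3 each). Its means were 0.89 in Con, 1.07 in A10 and 0.79 in Con-FMT, and the filter asked for 1 RPKM. Ppargc1b thus passed the filter only through the groups where it was high, and its tests are not independent of that filter. For that reason no p-value is given. On the log2 scale Ppargc1b was higher by 0.67 in HS+A10 vs HS, 0.62 in A10-FMT vs HS and 0.47 in HS+A10 vs A10. Esrra, a nuclear receptor that works with it, fell by 0.57 in Con-FMT vs HS (limma, adjusted p = 0.00459), and by 0.65 without Con-FMT replicate 3, the library with acinar genes (adjusted p = 0.00478). Nrf1, the factor whose letters were searched, fell by 0.40 (limma, adjusted p = 0.0266), a call that did not hold without that library (-0.36, adjusted p = 0.0754). Cs, the citrate synthase, fell by 0.52 (limma, adjusted p = 0.00338), and by 0.41 without it (adjusted p = 0.0132). The mitochondrial chaperones Hspd1 and Hspe1 fell by 0.54 and 0.58 in A10-FMT vs Con-FMT (limma, adjusted p = 0.00489 and 0.00341), and by 0.50 and 0.64 without that library (adjusted p = 0.0181 and 0.0044). These genes come from the lists of transcription regulators and general mitochondrial genes and were named after their values were seen, and their relation to the members was not tested.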
